A study of Arabidopsis thaliana with 6 samples.

Results

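The 2834 differentially methylated regions (DMRs) described here are those at which endosperm that inherited no functional *NRPD1* from its mother differed from wild-type endosperm on the 5 *Arabidopsis thaliana* chromosomes. They are all of the regions in 2 lists, 600 for CG sites and 2234 for CHH sites (where H stands for A, C or T), of 8950 regions in the 6 DMR lists of the series. Whole-genome bisulfite sequencing was carried out on endosperm dissected 7 days after pollination. WT endosperm had a L*er* mother and a Col-0 father. In mat *nrpd1+/-* endosperm the L*er* mother was homozygous for the nrpd1a-4 allele and the Col-0 father was not, with 2 replicates in each group. The other group of the series, pat *nrpd1+/-*, had L*er* mothers with homozygous mutant Col-0 fathers and is used only for comparison. All 3 groups are thus F1 hybrids of L*er* mothers and Col-0 fathers, and each replicate pooled the endosperm of many seeds, freed of embryo and seed coat by hand. In mat *nrpd1+/-* the father still supplied an intact *NRPD1* copy, and the mutant allele had been moved into L*er* by repeated crossing. The paper states that Col-0 segments remained in the L*er* mutant plants. The mothers of WT and mat *nrpd1+/-* endosperm therefore differed in more than *NRPD1*.

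*NRPD1* encodes the catalytic subunit of Pol IV, a plant RNA polymerase whose transcripts are copied by RDR2 and cut by DCL3 into small RNAs. In the pathway called RNA-directed DNA methylation these small RNAs, bound to Argonaute proteins, guide the methyltransferase DRM2 to matching DNA, where cytosines of every context can be methylated. CG methylation, once made, is copied after replication by MET1 and is common in transposons and in the bodies of many expressed genes, whereas CHH methylation has no symmetric partner strand to copy and must be made anew. In endosperm, maternal genomes are less methylated than paternal ones at many sites.

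The replicates of a group were pooled by the authors before the lists were made. Each DMR therefore has 1 value, the percent methylation in mat *nrpd1+/-* minus that in WT in percentage points, with no spread over replicates. The lists hold no methylation levels and no read counts, so the depth of a region is unknown beyond the minimum number of reads per cytosine that the study's methods set, a region's difference has no interval, and no marker of a cell type can be read. Below, hypomethylated and hypermethylated mean lower and higher in mat *nrpd1+/-* than in WT by at least the authors' threshold. A pat *nrpd1+/-* value given for a named region is that of a DMR of the same context that overlapped it by any length. It was taken against the same pooled WT libraries, so it is not independent of the mat *nrpd1+/-* value. The kept sequence is what passed the authors' filters on maternal reads and on variable regions in both genotypes, 89.3 Mb for CG and 86.0 Mb for CHH. The authors' minimum of cytosines and reads per window was not applied to it. It therefore includes sequence in which no DMR could be called. Shares of regions carry exact 95% Clopper-Pearson intervals, which cover the counting of regions only, and PCR-amplified reads are not independent molecules. The *NRPD1* gene (AT1G63020, chr1:23354685-23362589) could not be checked, since 0% of it was kept in mat *nrpd1+/-* against 100% in WT.

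The sequences at the most extreme CG differences are shown first because they hold very unequal numbers of CG sites. All sequences are from the top strand of the reference (NCBI TAIR10.1), 5′ to 3′, and show 300 bases of a region. In the first 2, capitals mark CG dinucleotides. The largest CG hypomethylation, -74.1 points, lay at chr5:20669501-20669900, and bases chr5:20669551-20669850 are printed. This region was intergenic, 2188 bp upstream of *SWEET13* (AT5G50800), which encodes a sucrose efflux transporter. The largest CG hypermethylation, 82.0 points, lay at chr5:26829801-26830300, of which chr5:26829901-26830200 is printed. It covered the start of AT5G67245, an uncharacterized protein, and its centre lay upstream of that gene.
Largest CG hypomethylation: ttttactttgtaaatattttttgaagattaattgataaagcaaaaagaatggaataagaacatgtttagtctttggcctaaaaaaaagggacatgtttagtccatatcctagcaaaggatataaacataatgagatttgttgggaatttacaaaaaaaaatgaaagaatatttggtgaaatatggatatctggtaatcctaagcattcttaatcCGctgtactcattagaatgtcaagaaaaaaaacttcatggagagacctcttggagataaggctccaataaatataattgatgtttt
Largest CG hypermethylation: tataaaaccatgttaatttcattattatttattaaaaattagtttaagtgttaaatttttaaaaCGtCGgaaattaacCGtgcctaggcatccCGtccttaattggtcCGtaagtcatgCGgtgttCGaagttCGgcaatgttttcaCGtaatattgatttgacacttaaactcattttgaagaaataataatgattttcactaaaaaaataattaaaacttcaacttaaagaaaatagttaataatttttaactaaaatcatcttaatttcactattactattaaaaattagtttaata

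The region near *SWEET13* held 1 CG dinucleotide in the 400 bp of the reference, and the region at AT5G67245 held 10. Across the CG list the regions held a median of 10 CG cytosines with both strands counted, with quartiles of 6 and 16 and a maximum of 102. The study's methods asked for at least 3 cytosines informative in both genotypes, yet 20 CG DMRs (3.33%) held only 1 CG dinucleotide, that is 2 CG cytosines, in the reference. Of kept 300-bp windows, 5.46% held fewer than 3. These 20 regions, 11 of them hypomethylated, had a median absolute difference of 44.2 points, against 35.6 points in the 221 regions with 4 to 8 CG cytosines, 35.4 points in the 249 with 10 to 18 and 37.1 points in the 110 with 20 or more. Why they passed the minimum was not tested. No CHH DMR was in this position, as the regions held 22 to 230 CHH cytosines.

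The most extreme CHH differences and a pair of places where CG and CHH DMRs overlapped are shown for the same comparison of sequence make-up. In the next 2 sequences capitals mark CHH cytosines of the printed strand. The largest CHH hypomethylation, -57.2 points, was at chr2:3134301-3134600, 8127 bp from the nearest protein-coding gene (AT2G07505, annotated as a zinc ion binding protein), and this place was listed at -52.0 points in pat *nrpd1+/-*. The largest CHH hypermethylation, 75.7 points, was at chr2:603001-603400 (printed: chr2:603051-603350), 1052 bp upstream of AT2G02290, which encodes a haloacid dehalogenase-like hydrolase. In the last 2 sequences capitals again mark CG. At chr4:6685501-6685800, 28 bp downstream of AT4G10880, both contexts were hypermethylated, and at chr4:7561501-7562100 (printed: chr4:7561651-7561950), 6185 bp upstream of *UND*, which encodes an aspartyl protease, they differed in opposite directions.
Largest CHH hypomethylation: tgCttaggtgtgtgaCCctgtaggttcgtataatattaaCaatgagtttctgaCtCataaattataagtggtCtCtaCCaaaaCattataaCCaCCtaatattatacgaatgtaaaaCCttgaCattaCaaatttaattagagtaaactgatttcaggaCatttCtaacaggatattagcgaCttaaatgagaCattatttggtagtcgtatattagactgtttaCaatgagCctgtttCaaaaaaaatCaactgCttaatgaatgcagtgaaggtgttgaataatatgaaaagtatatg
Largest CHH hypermethylation: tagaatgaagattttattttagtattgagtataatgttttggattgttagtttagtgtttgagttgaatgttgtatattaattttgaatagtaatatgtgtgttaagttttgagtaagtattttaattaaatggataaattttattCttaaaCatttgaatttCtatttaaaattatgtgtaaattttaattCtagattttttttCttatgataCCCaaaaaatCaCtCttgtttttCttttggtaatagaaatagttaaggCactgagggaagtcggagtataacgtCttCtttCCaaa
CG and CHH in the same direction: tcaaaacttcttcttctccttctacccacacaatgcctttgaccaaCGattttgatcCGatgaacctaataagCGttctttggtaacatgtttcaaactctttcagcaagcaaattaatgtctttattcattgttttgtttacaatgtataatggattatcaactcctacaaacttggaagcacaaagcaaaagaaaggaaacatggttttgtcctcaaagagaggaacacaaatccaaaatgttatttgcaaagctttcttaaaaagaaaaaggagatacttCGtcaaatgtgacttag
CG and CHH in opposite directions: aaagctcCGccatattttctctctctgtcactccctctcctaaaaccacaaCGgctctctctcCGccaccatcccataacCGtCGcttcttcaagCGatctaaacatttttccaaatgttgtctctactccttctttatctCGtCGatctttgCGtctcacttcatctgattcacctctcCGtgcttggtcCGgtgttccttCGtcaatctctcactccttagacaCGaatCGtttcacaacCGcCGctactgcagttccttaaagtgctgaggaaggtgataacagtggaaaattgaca

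The size of the differences was asked first. CG DMRs made up 0.232% of the kept 100-bp bins, 0.112% hypomethylated and 0.12% hypermethylated, and CHH DMRs made up 0.945%, with 0.471% and 0.474%. Both lists were thus split almost evenly between directions, with 291 hypomethylated and 309 hypermethylated CG regions and 1118 and 1116 CHH regions. The even split held on each chromosome, where the hypomethylated share ran from 45.4% to 55.1% for CG and from 48.7% to 52.7% for CHH. CG differences began at 30.054 points and had a median absolute size of 35.7 points, and 66 regions (11%) lay within 1 point of the threshold of 30 points. CHH differences began at 10.001 points with a median of 14.2 points, and 359 regions (16.1%) lay within 1 point of the threshold of 10 points. Regions just outside the thresholds are not listed. Differences of 60 points or more were found at 15 CG DMRs and differences of 20 points or more at 589 CHH DMRs, of which 344 were hypermethylated.

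The regions were short. In the CG list 433 regions were a single window of 300 bp and the longest was 1300 bp. In the CHH list 1317 were a single window, 915 were longer and the longest was 1000 bp. Hypermethylated regions were larger in difference when they were longer. The median CHH hypermethylation was 13.2 points at up to 300 bp, 17.5 points at 400 bp and 22.1 points at 500 bp or more, and the median CG hypermethylation was 35.3, 40.9 and 43.9 points. Hypomethylated regions showed no such order, with CHH medians of -13.7, -13.4 and -13.3 points and CG medians of -34.9, -34.4 and -35.7 points. These are descriptions of 2 lists, and the difference between the directions was not tested. How the value of a region merged from several windows was computed is not given, which bears on any order by length. The longest CG DMR (chr4:1657201-1658500, 62.2 points) overlapped the pseudogene AT4G03732 and held 43 CG dinucleotides. The longest CHH DMR (chr5:14647501-14648500, 30.2 points) lay 1888 bp upstream of *CHX24*, a cation/H+ exchanger gene. In pat *nrpd1+/-* a DMR that overlapped this region was listed at -58.6 points against the same WT libraries. How much of the region that DMR shared was not measured.

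The other named extremes were mostly intergenic in CHH and partly genic in CG. CG hypomethylation of -65.4 points was found at chr4:5539101-5539600, 790 bp upstream of AT4G08670 (a lipid-transfer and 2S albumin superfamily protein), a region with 11 CG dinucleotides. CG hypomethylation of -63.6 points at chr4:7469401-7469700 lay in a coding exon of AT4G12650 (an endomembrane protein) and rested on 1 CG dinucleotide, with -48.6 points listed there in pat *nrpd1+/-*. Hypermethylation of 67.5 points was found in an intron of *LARP1a* (chr5:7201701-7202200), whose product takes part in mRNA decay under heat, and of 66.96 points in a coding exon of AT5G22780 (chr5:7592201-7592700), an alpha subunit of the AP-2 adaptor of endocytosis. In CHH, the next largest hypomethylated regions were 1707 bp upstream of *UMAMIT41* (chr3:10440401-10440900, -56.6 points), an EamA-like transporter gene, and 5929 bp upstream of *SDR4* (chr3:11201101-11201600, -56.3 points). In pat *nrpd1+/-* these places were listed at -21.3 and -56.3 points. The value near *SDR4* was -56.311 points in both lists. The next largest hypermethylated regions lay 9224 bp upstream of AT1G36310 (chr1:13659701-13660200, 72.4 points, with 78.6 points in pat *nrpd1+/-*), a methyltransferase gene, and 4196 bp downstream of AT5G27800 (chr5:9848001-9848600, 68.9 points).

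The position of the DMRs along the chromosomes was compared with the gene content of 1-Mb bins. CHH DMRs were concentrated where genes are sparse, as in the DNA around centromeres. Bins in which protein-coding genes covered under 30% of bases held 816 CHH DMRs, 36.5% of the list (interval 34.5% to 38.6%), but 16.3% of the kept sequence. This is a density of 58.2 CHH DMRs per kept Mb, against 30.3 in bins of 30 to 60% and 15.3 in bins of 60% or more. Among the 103 bins with at least 0.2 Mb kept, the 21 gene-poor bins ranged from 42.6 to 107.3 CHH DMRs per kept Mb. The 59 gene-rich bins ranged from 5.38 to 27.5 and did not overlap the gene-poor ones. The 23 bins of 30 to 60% ranged from 12.4 to 51.5 and overlapped both. The highest density was in the bin chr4:4000001-5000000, of which only 0.3075 Mb was kept.

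**Figure D1:**
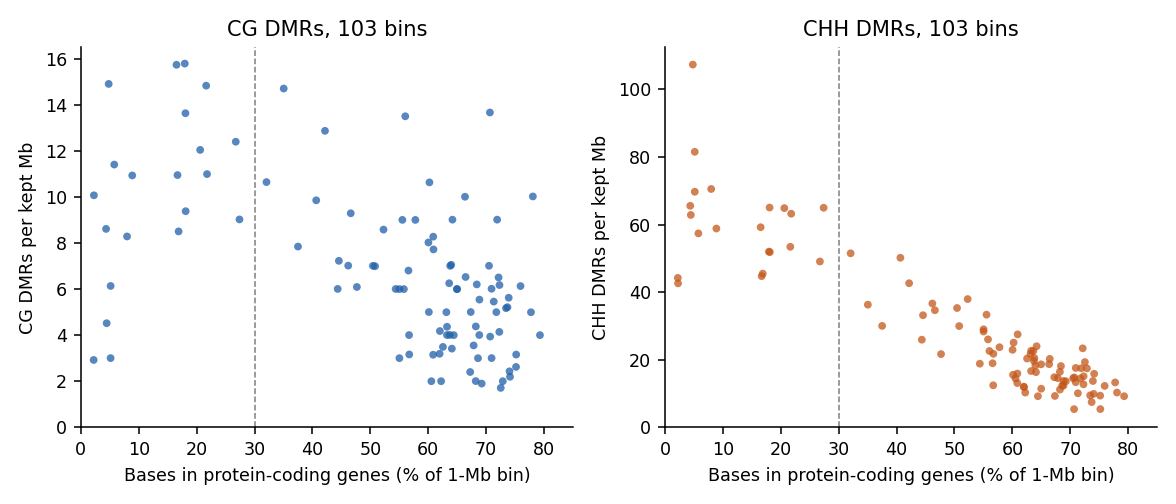
DMRs per kept Mb (vertical axis) against the percentage of bases in protein-coding genes (horizontal axis) for 103 bins of 1 Mb with at least 0.2 Mb kept, CG left and CHH right, 1 point per bin, with a dashed line at 30%. CHH densities run from 42.6 to 107.3 left of the line, from 12.4 to 51.5 at 30 to 60%, and do not exceed 27.5 at 60% or more. CG densities overlap, from 2.93 to 15.8 left of the line and from 1.71 to 13.7 at 60% or more.

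CG DMRs followed gene content less closely. The gene-poor bins held 26.7% of CG DMRs (interval 23.2% to 30.4%) and 16.9% of the kept sequence, or 10.6 CG DMRs per kept Mb against 5.14 in gene-rich bins. Single bins overlapped widely, from 2.93 to 15.8 per kept Mb in gene-poor bins and from 1.71 to 13.7 in gene-rich ones. Within the gene-poor bins, those with under 10% of bases in genes had 8.06 CG DMRs per kept Mb and those with 10 to 30% had 12.1, while CHH DMRs had 62.8 and 55.5. The hypomethylated share of CHH DMRs was 52.5% in gene-poor bins (interval 49.0% to 55.9%) and 46.1% in gene-rich bins (interval 42.6% to 49.7%). For CG it was 45% (interval 37.1% to 53.1%) and 51.7% (interval 45.5% to 57.8%).

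The filters did not keep all chromosomes alike, which bears on any count per chromosome. For CG, 48.9% of chromosome 1 was kept and 91.8% of chromosome 4. The sequence not kept included long unbroken stretches. Each 1-Mb bin of chr1:18000001-29000000 had at most 0.001 Mb kept in either context, and those of chr2:16000001-19698289 had 0 Mb. The lists therefore say almost nothing about these stretches. The density per kept Mb ran from 5.04 CG DMRs on chromosome 1 to 7.70 on chromosome 2, and from 22.7 CHH DMRs on chromosome 3 to 32.6 on chromosome 2. The part of a chromosome that was kept and its density cannot be told apart in these lists. The filter on regions that varied between replicates also removed more in mat *nrpd1+/-* than in WT, with 901 against 131 CG regions and 7244 against 5254 CHH regions. Of the CHH DMRs that passed, 411 (18.4%, interval 16.8% to 20.1%) lay within 1 kb of a CHH region that varied in mat *nrpd1+/-*, where 11.9% of the kept sequence lies, and 323 (14.5%) lay within 1 kb of one that varied in WT, where 8.65% lies. For CG DMRs these counts were 12 and 2. The 62 CHH DMRs that abutted removed sequence included both of the regions shorter than 300 bp. At the DMRs the median share of maternal reads was 0.630 to 0.636 of reads in both genotypes, for both contexts and both directions.

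The place of each DMR relative to annotated genes was read at its midpoint. Inside protein-coding genes lay 330 CG DMRs, 55% of the list (interval 50.9% to 59.0%), as much as the 54.6% of kept bases that are genic, but only 454 CHH DMRs, 20.3% of the list (interval 18.7% to 22.1%) against 55.4% of kept bases. Coding exons held 28.3% of CG DMRs and 5.37% of CHH DMRs, and about the same share of kept sequence in each context, 28.5% and 29.1%. Introns held 21.7% of CG DMRs (interval 18.4% to 25.2%) against 15.4% of kept bases, and 5.73% of CHH DMRs against 15.8%. Outside any annotated gene lay 32.7% of CG DMRs and 65.8% of CHH DMRs, against 35.4% and 34.7% of kept bases. Transposable elements were not annotated separately here.

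**Figure D2:**
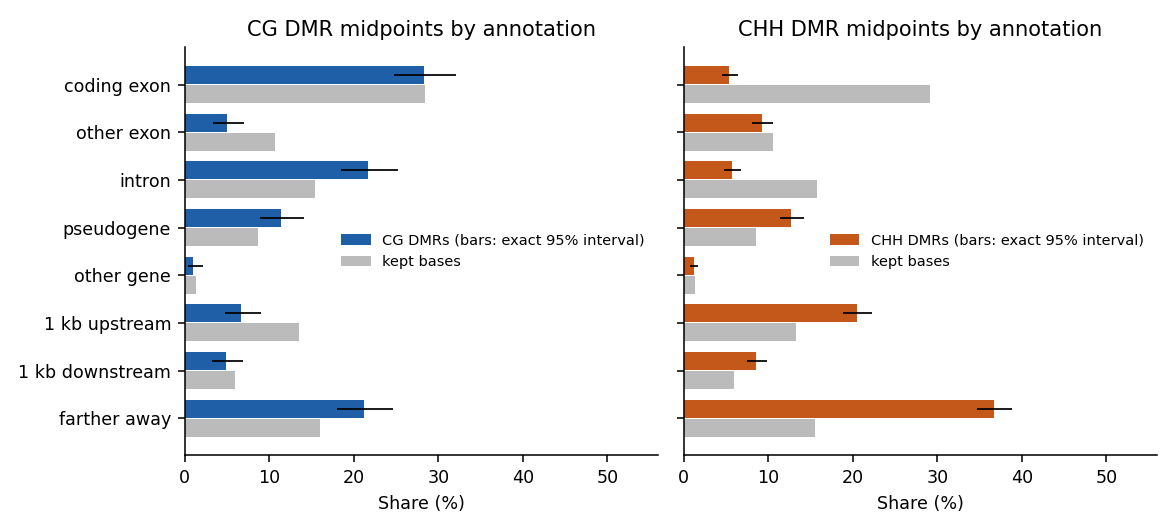
Share of DMR midpoints in each annotation class (coloured bars with exact 95% intervals) beside the share of kept bases (grey bars), CG left and CHH right, in percent. Coding exons hold 28.3% of CG DMRs and 5.37% of CHH DMRs, and sequence farther than 1 kb from protein-coding genes holds 21.2% and 36.8%.

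Gene flanks also differed by context. The 1 kb upstream of protein-coding genes held 458 CHH DMRs (20.5%, interval 18.8% to 22.2%, against 13.3% of kept bases) but 40 CG DMRs (6.67%, interval 4.81% to 8.97%, against 13.5%). Directions were even among the upstream CHH DMRs, with 228 hypomethylated and 230 hypermethylated. Pseudogenes held 284 CHH DMRs (12.7% against 8.51% of kept bases) and 68 CG DMRs (11.3% against 8.63%). Of the 68, 45 were hypermethylated and 23 hypomethylated, a hypomethylated share of 33.8% (interval 22.8% to 46.3%). Of the 30 CG DMRs in noncoding exons, 21 were hypomethylated (70%, interval 50.6% to 85.3%). These shares were picked out of 8 classes and were not tested. Among CG DMRs longer than 1 window the upstream share was 10.2%.

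Aligned on genes, the contexts had different profiles around the gene start, although both fell across the start itself. Distances were taken to the nearest start or end, and positions after a start were not required to lie inside the gene. CG DMRs were sparsest in the first 500 bp after the start, with 1.98 per kept Mb, against 10.6 between 2000 and 2500 bp after it. In the 500 bp before the start there were 2.81. CHH DMRs numbered 36.6 per kept Mb in the 500 bp before the start and 18.2 in the 500 bp after it. Farther out, between 3000 and 2500 bp before the start, they numbered 38.4. They were lowest at 11.1 between 1000 and 1500 bp after the start. At the gene end, CHH DMRs went from 10.9 per kept Mb between 1000 and 500 bp before it to 21.5 in the 500 bp after it, and CG DMRs from 7.34 to 4.19. A local high of CHH DMRs next to genes was therefore seen at starts, where the 500 bp beyond it held 27.0, and not at ends, where the next 500 bp held 23.1.

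**Figure D3:**
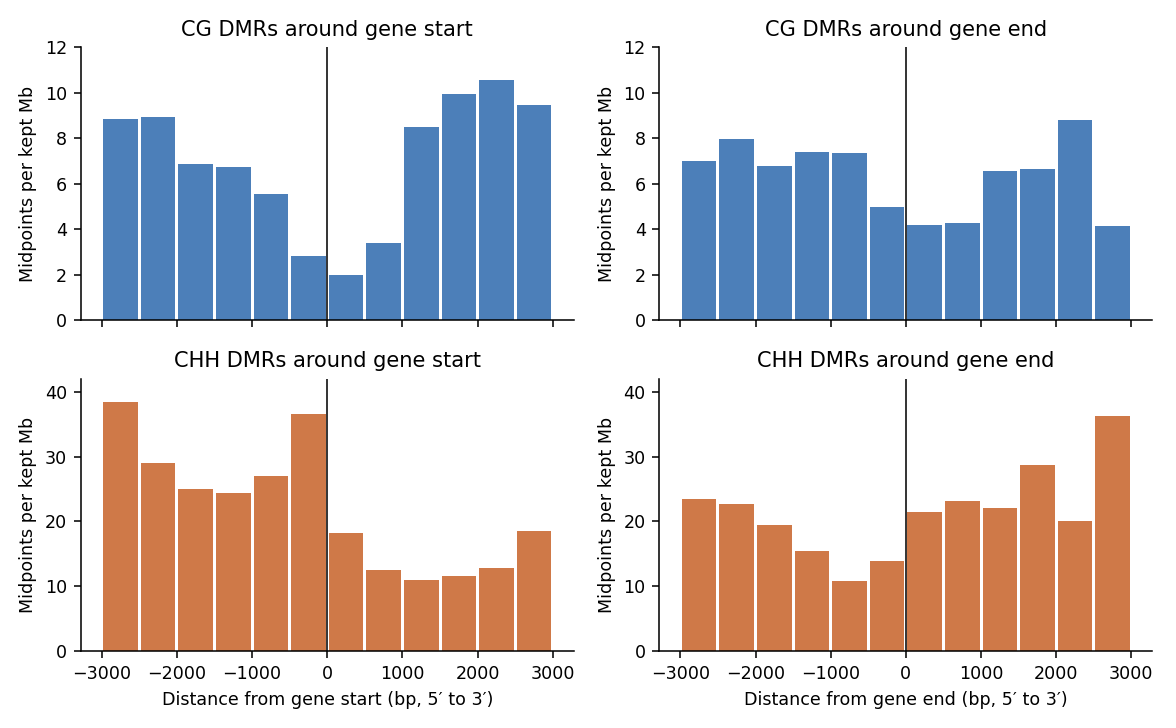
DMR midpoints per kept Mb (vertical axes) in 500-bp steps from 3000 bp before to 3000 bp after the start (left) and end (right) of protein-coding genes, CG above and CHH below; the horizontal axes give bp in the direction of transcription. CG bars dip to 1.98 just after the start and CHH bars stand at 36.6 just before it.

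The base composition of the regions was compared with kept 300-bp windows. CHH DMRs were poorer in G and C, 31.4% against 36.0%, and held 19.1 CG dinucleotides per kb against 23.3. Among CHH DMRs outside annotated genes the G and C shares were 28.9% against 30.5%. Hypomethylated and hypermethylated CHH DMRs were close, at 31.6% and 31.1%. CG DMRs held 35.3% G and C and 19.95 CG dinucleotides per kb, against 35.9% and 23.2 in kept windows, so that CG DMRs were not placed in CG-rich sequence. The 2 CHH sequences printed above, at 30.7% and 23.3% over the bases shown, lie on the AT-rich side of the list.

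CG and CHH DMRs met at few places. In all, 26 CG DMRs overlapped a CHH DMR, 4.33% of the CG list (interval 2.85% to 6.29%) and 1.16% of the CHH list. CHH DMRs covered 0.947% of the sequence kept for both contexts. That is a share of bases and not of regions with any overlap, so these are not like measures. Where CG and CHH DMRs overlapped, the direction was more often shared than opposite. In 20 of the 26 pairs both contexts differed in the same direction (76.9%, interval 56.4% to 91.0%), 12 hypomethylated and 8 hypermethylated, and the other 6 were split evenly between the opposite combinations. The shared part was 66.7% of 6 pairs with the stricter differences and 66.7% of 6 among regions longer than 1 window. Without DMRs within 1 kb of a variable region it was 70.6% of 17 pairs. Each of these intervals included an even split. Without chromosome 5 it was 81.0% of 21 pairs (interval 58.1% to 94.6%). Of 43 further pairs separated by no more than 1 kb, 27 shared a direction (62.8%, interval 46.7% to 77.0%). Both contexts were read from the same DNA molecules, so that their directions are not independent measurements. Of the overlaps, 11 lay farther than 1 kb from protein-coding genes, 5 in the 1 kb upstream of one and 3 downstream.

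The overlapping pairs with the largest summed difference were of both kinds. At the printed place near AT4G10880, CG was 56.9 points and CHH 34.4 points higher, and the CG place was listed at 49.4 points in pat *nrpd1+/-*. At the printed place upstream of *UND*, CG was 43.2 points higher and CHH 48.1 points lower (-48.1). The CHH cytosines there were nearly all on 1 strand, with 67 on the top and 8 on the bottom strand of the CHH DMR. At the pseudogene AT1G19420 (chr1:6722901-6723500) CG was 58.6 and CHH 24.7 points higher. In pat *nrpd1+/-* a CG DMR that overlapped this CG region was at -33.2 points, and the length shared was not measured. Upstream of AT3G29385 (chr3:11286801-11287100) CG was -37.2 and CHH -31.8 points, and upstream of AT3G43740, a leucine-rich repeat gene (chr3:15642901-15643300), they were -32.4 and -28.8 points. Near AT1G36070, a WD40 repeat gene (chr1:13463401-13463900), CG was -47.3 and CHH 16.7 points. In an intron of *CKX3* (chr5:23046701-23047100), which encodes an enzyme that degrades cytokinins, both were higher, by 43.5 and 18.4 points. Beside the CG hypomethylation near *SWEET13*, a CHH DMR of -15.3 points lay 400 bp away on the gene's side.

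**Figure D4:**
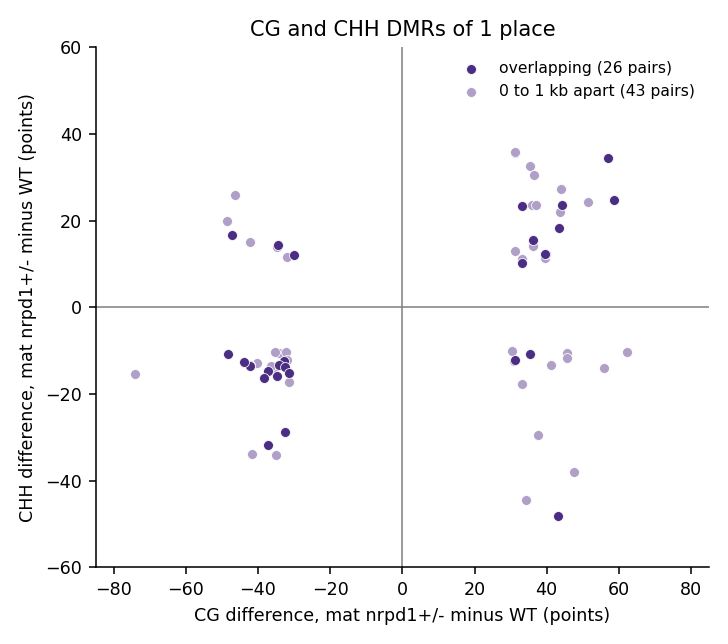
CG difference (horizontal axis) and CHH difference (vertical axis), both mat nrpd1+/- minus WT in percentage points, for the 26 overlapping pairs of DMRs (dark) and the 43 pairs no more than 1 kb apart (light). Most dark points, 20 of 26, lie in the quadrants of shared direction, and the point at 43.2 and -48.1 is the pair upstream of *UND*.

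Clustering was examined as DMRs of the same context within 1 kb. Few regions had such a neighbour, 26 CG DMRs (4.33%, interval 2.85% to 6.29%) and 225 CHH DMRs (10.1%, interval 8.85% to 11.4%). With the stricter differences (40 points CG, 15 points CHH) these shares were 1.15% and 6.04%, and among regions longer than 1 window 1.20% and 5.25%. The median gap between adjacent regions was 105300 bp for CG and 22300 bp for CHH. Linking DMRs of either context across gaps of up to 1 kb gave 2637 groups, of which 2463 were single regions, 153 had 2, 19 had 3 and 2 had 4. The longest run of 1 direction was at chr5:10602501-10605200, over the pseudogenes AT5G28600 and AT5G28605, where CG DMRs of 37.0, 44.2 and 35.9 points and a CHH DMR of 23.5 points were all hypermethylated. The other group of 4, at chr1:16005001-16007000, was mixed, with CHH values of 15.5, 14.2 and -13.3 points and a CG value of 36.2 points. A mixed group of 3 spanned 700 bp up to the start of AT4G04260, a BAH domain gene. There a CHH DMR of 15.2 points adjoined a CG DMR of -42.2 points (-36.7 points in pat *nrpd1+/-*), which overlapped a CHH DMR of -13.5 points.

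Neighbouring CHH DMRs more often had opposite than equal directions. Of 109 adjacent CHH DMRs less than 1 kb apart, 42 had the same direction and 67 opposite directions, a same-direction share of 38.5% (interval 29.4% to 48.3%). At all longer distances the share was close to even, 51.2% of 80 pairs at 1 to 2 kb, 51.2% of 211 at 2 to 5 kb and 50.7% of 608 at 50 kb or more. Below 500 bp it was 20 of 50 pairs (40%) and from 500 bp to under 1 kb 22 of 59 (37.3%). For CG, 9 of 12 adjacent pairs under 1 kb had the same direction (75%, interval 42.8% to 94.5%). Overlapping called windows of a list had been merged before deposit. The share was 46.7% of 30 pairs with the stricter CHH difference of 15 points, 40.9% of 22 pairs among regions longer than 1 window, 39.7% of 73 pairs without DMRs within 1 kb of a variable region and 42.5% of 87 pairs without chromosome 5, and each of these intervals included an even split.

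**Figure D5:**
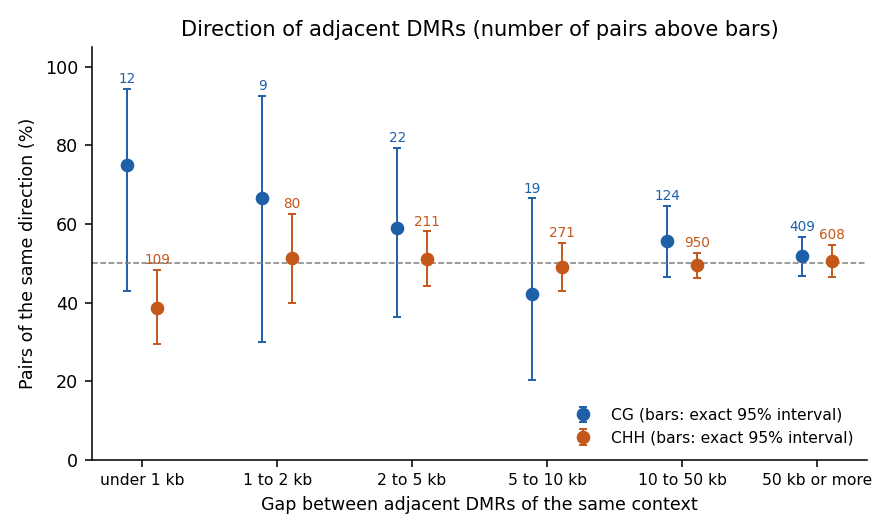
Share of adjacent DMR pairs of the same context with the same direction (vertical axis, percent, exact 95% intervals, number of pairs above) by the gap between them (horizontal axis), CG blue and CHH orange, with a dashed line at 50%. The CHH share is 38.5% for 109 pairs under 1 kb and 51.2% for 80 pairs at 1 to 2 kb.

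The genes near the DMRs were listed next. Of 20806 protein-coding genes with at least 50% of their length kept, 2006 (9.64%) had a DMR within 1 kb, 526 (2.53%) a CG DMR, 1534 (7.37%) a CHH DMR and 54 (0.26%) both. Nearly all of these genes, 1876, had 1 DMR, while 120 had 2 and 9 had 3. The gene with 4 was *RAPTOR1* (AT3G08850), a regulator of TOR kinase signalling. Its CG DMRs were at -34.2, 30.3 and -30.5 points and its CHH DMR at -10.2 points, all inside the gene and in both directions. It was singled out after its values were seen. With the stricter differences 801 kept genes had a DMR within 1 kb, with regions longer than 1 window 792, and counting overlap only 971.

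Genes of the methylation machinery were looked up next. Of 22 kept genes of RNA-directed DNA methylation, among them those for RDR2, DCL3 and AGO4, 0 had a DMR within 1 kb, beside 9.64% of all kept genes. Of 10 kept genes that maintain or remove methylation, 1 did (10%), which is near that background. *MET1*, the CG maintenance methyltransferase, had a CHH DMR of -13.5 points 30 bp past its end (chr5:19938501-19939000), inside a noncoding exon of another gene. *NRPE1*, *CMT3*, *DDM1*, *ROS1* and *DME* lay in sequence not kept in mat *nrpd1+/-*. Of 7 kept genes of Polycomb repressive complex 2, which marks repressed genes, 1 had a DMR. *EMF2* had a CG DMR of -32.2 points in an intron (chr5:20824501-20824800) with 1 CG dinucleotide. The same place was listed for pat *nrpd1+/-*, with the identical value of -32.203 points.

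Of 10 kept genes of endosperm development, 3 had a DMR, and of 10 kept imprinted genes, which are expressed mainly from the copy of 1 parent, 2 did, beside 9.64% of all kept genes. All 5 were CHH DMRs, which lay near 7.37% of all kept genes against 2.53% for CG DMRs. Counts this small are given as descriptions only. *AGL62*, a MADS-box factor that holds back endosperm cellularization, had a CHH DMR across its start of -13.0 points (chr5:24305101-24305600), listed at -11.4 points in pat *nrpd1+/-*. *AGL90* had one of -19.8 points 730 bp upstream. *AGL28* had one of 17.4 points 833 bp downstream, with its midpoint in an intron of another gene. Both DMRs of imprinted genes were hypomethylated and lay just past the gene's end. *MPC*, a maternally expressed gene for a poly(A)-binding protein C-terminal domain, had one of -37.0 points 73 bp past its end (chr3:6706201-6706500). *HDG8*, a homeodomain factor gene, had one of -31.9 points 58 bp past its end (chr3:754801-755100). Both places also lay in the 1 kb upstream of the next gene, and neither was listed for pat *nrpd1+/-*. Places under the threshold or not kept in pat *nrpd1+/-* are also absent from that list. *MEA*, *PHE1* and *YUC10* were not in kept sequence.

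Of 16 kept sugar transporter genes, 4 had a DMR (25%, beside 9.64% of all kept genes). In CHH there were 3 (18.75%, beside 7.37%) and in CG 1 (6.25%, beside 2.53%). These counts too are small and are given as descriptions only. The CHH DMRs were hypomethylated, by -15.7 points 283 bp upstream of *SUC8* (a sucrose-proton symporter), by -11.9 points 819 bp downstream of *SWEET7* and by -10.8 points directly upstream of *SWEET10*. The CG DMR, 616 bp downstream of *SWEET16* and with its midpoint in an intron of another gene, was 37.6 points higher. *SWEET13*, next to the largest CG hypomethylation, is not in this count, since that region was more than 1 kb away. Among product families, the counts stood beside 9.64% of all kept genes as follows. MADS-box transcription factors had DMRs at 12 of 92 kept genes (13.0%), 5 DMRs hypomethylated and 7 hypermethylated, from -22.5 points near *AGL30* to 34.1 points at AT5G26865. Defensin-like proteins, small secreted cysteine-rich peptides, had them at 9 of 78 (11.5%). Of these 9 DMRs 8 were hypomethylated, from -34.6 points in CG at AT2G22941 to -10.9 points in CHH at AT2G06166, with AT2G24615 at 28.6 points as the exception. In the full lists 291 of 600 CG DMRs and 1118 of 2234 CHH DMRs were hypomethylated. The defensin-like split was picked out as the most one-sided among the product families. It rests on few DMRs and was not tested.

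The larger families stood near the background. Genes whose product name contains the word kinase, which takes in protein kinases, metabolic kinases and kinase-interacting proteins, had a DMR at 101 of 1016 kept genes (9.94%), cytochrome P450 enzymes at 17 of 189 (8.99%), F-box proteins at 43 of 517 (8.32%) and disease resistance proteins at 11 of 143 (7.69%). The directions were mixed in each, with 55 of 107 DMRs of the kinase group and 6 of 11 of disease resistance proteins hypomethylated. *RPP4*, a receptor of downy mildew resistance, had the highest value among the latter, 47.2 points in CG. No list was tested for enrichment.

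To see whether these features were particular to maternal loss, 5 shares were compared with the list of WT against pat *nrpd1+/-*, in sequence kept in all 3 genotypes. The lists share their WT libraries and pool the replicates, regions were the units of a two-sided Fisher's exact test, and p-values were adjusted over the 5 tests, so that they describe lists and not the reproducibility of a genotype. Only 1 share passed at an adjusted p of 0.05. CG DMRs lay in protein-coding genes in 328 of 594 cases for mat *nrpd1+/-* (55.2%) and in 283 of 622 for pat *nrpd1+/-* (45.5%), a difference of 9.72 points (adjusted p = 0.00359, Fisher's exact test). With the stricter difference of 40 points, the difference was 0.39 points (45.9% of 170 against 45.5% of 244, adjusted p = 1, Fisher's exact test). The gene-poor share of CHH DMRs was 37.2% and 35.3% (adjusted p = 0.388), the share of CG DMRs on a CHH DMR 3.87% and 3.54% (adjusted p = 0.764), the share of CHH DMRs with a neighbour 8.48% and 6.93% (adjusted p = 0.292) and the share of CHH DMRs longer than a window 40.7% and 43.1% (adjusted p = 0.292), all by Fisher's exact test.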

How the data were processed

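Bisulfite sequencing of whole genomes was done on endosperm of WT, mat *nrpd1+/-* and pat *nrpd1+/-* F1 seeds, 2 replicates each. Per the labels and the study's methods, the authors trimmed reads with Trim Galore, aligned them to TAIR10 with Bismark, pooled replicates, compared 300-bp windows set every 100 bp, called differences of 30 points (CG) or 10 points (CHH) and merged overlapping windows. The deposited values of the DMR lists are differences in percentage points, and another set of lists gives the maternal share of reads as a fraction, also computed by the authors. Lists of regions that varied between replicates had been used by the authors as a filter. How the value of a merged region was computed is not given in the sources used here.

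Kept sequence was taken as the maternal-read lists of both genotypes minus their variable regions. Genes came from the NCBI TAIR10.1 annotation, whose chromosome lengths contain every region. Gene lists were matched by locus tag, and families by product name. Named regions were the 3 largest differences of each sign and the longest region of each context, the 3 largest groups and the 8 overlapping pairs of largest summed difference. Named genes were the nearest to these and list members with a DMR within 1 kb. Members and lists were chosen with earlier results of these data known. The alternatives were stricter differences, longer regions, distance from variable regions, other definitions and leaving out chromosome 5. A further 2, leaving out CG DMRs of fewer than 3 CG cytosines and the alternatives for the direction of neighbours, were chosen after seeing the data. Python 3.11.15 with numpy 2.4.6, pandas 2.3.3, scipy 1.17.1 and matplotlib 3.10.9 was used. The overlap and neighbour functions and Fisher's exact test were tried on simulated data, and the annotation and gene-poor shares were not.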

Additional observations from a re-analysis of the deposited data

Results flagged for a closer look

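The share of CG DMRs inside protein-coding genes was 9.72 points higher in the list for mat *nrpd1+/-* than in that for pat *nrpd1+/-*, by a test of the difference itself (Fisher's exact test over regions of pooled lists that share the WT libraries). The difference was 0.39 points with the stricter difference of 40 points (adjusted p = 1, Fisher's exact test) and 7.32 points among regions longer than 1 window (adjusted p = 0.369, Fisher's exact test). CG regions that varied between the replicates of mat *nrpd1+/-*, which the authors had removed from the DMR lists, numbered 9.997 per Mb of its maternal-read list, against 1.20 per Mb in WT and 2.08 per Mb in pat *nrpd1+/-*. For CHH the values were 80.4, 48.0 and 53.3 per Mb.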

How the results depend on the processing

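No paired analysis was possible because the deposited lists were made from pooled replicates, and for the same reason no replicate could be left out. With stricter differences (40 points CG, 15 points CHH) there were 174 CG and 993 CHH DMRs, the share inside protein-coding genes was 45.4% for CG and 16.5% for CHH, the neighbour shares were 1.15% and 6.04%, and 801 genes had a DMR. Among regions longer than 1 window there were 167 CG and 915 CHH DMRs, and for CG the gene-poor share was 31.1%, the genic share 43.1%, the upstream share 10.2% and the neighbour share 1.20%, while the CHH neighbour share was 5.25% and 792 genes had a DMR. Without DMRs within 1 kb of a variable region the gene-poor share of CHH DMRs was 31.5% and their genic share 23.3%, and without chromosome 5 the gene-poor share was 38.7%. Other definitions moved values by construction. Gene-poor shares were 17.3% (CG) and 24.9% (CHH) at under 20% of bases in genes and 31.7% and 41.0% at under 40%. Counting any overlap, 28.6% of CHH DMRs touched a gene. With 2 kb upstream the shares were 12% (CG) and 29.5% (CHH). Neighbours within 2 kb were found for 6.67% of CG and 16.9% of CHH DMRs, and within 500 bp for 5.77% of CHH DMRs. Within 1 kb, 11% of CG DMRs had a CHH DMR, and 971 genes overlapped a DMR. The 20 CG DMRs of 2 CG cytosines, when left out, moved no share outside its interval and no count by over 1.5 times.

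In the comparison with the pat *nrpd1+/-* list, full lists gave differences of 6.08 points for the gene-poor share of CHH DMRs, 2.29 points for their neighbour share and -4.08 points for the share longer than a window, which then passed the test, as did the last at -5.01 points without DMRs near variable regions. The genic share of CG DMRs no longer passed with stricter differences (0.39 points) or among longer regions (7.32 points). The sign turned for the gene-poor share of CHH DMRs with stricter differences (-2.19 points) and for CG DMRs on a CHH DMR among longer regions (-0.139 points). The causes were not tested. Of 106 values under alternatives, 68 stayed within the main value's interval, within 1.5 times its count or on its side of the test.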
